A study of Mus musculus with 9 samples.

Results

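The genes described here are 54 rows of the 53819 in each count table of mouse morulae: every gene whose symbol begins with Hnrnp, with Srsf, Sf3a or Sf3b and a digit, or with Snrp and a letter from a to g (symbols that contain -ps left out), plus Dbr1 and Raly. Most encode spliceosome subunits or RNA-binding splicing regulators. Dbr1 encodes an enzyme that opens intron lariats, and Snrpert, which matched by symbol, was given no role. Dbr1 and Raly were added because of their values in these same libraries, so their levels are given as a description without a test. Standard errors beside the fold changes of Dbr1 and Raly describe spread and carry no test either. The share of library counts and the ranks by level include both, and the promoter windows include Raly. Other counts and medians over the set leave both out. Of the 54 genes, 53 passed the filter on low counts, and 51 of these were chosen by symbol alone. Srsf12 did not pass, with a count of 1 in 6% ethanol library 3 and 0 in the other 8 libraries.

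The embryos were C57BL/6J morulae produced by in vitro fertilization with the Nakagata protocol in CARD media. Total RNA was sequenced from 3 libraries with control sires, 3 with sires given 6% ethanol and 3 with sires given 10% ethanol, and the question was whether the father's alcohol intake before conception goes with altered gene expression in the embryo. The labels give no sire age, no length of exposure, no allele beyond the strain, and no number of embryos or sires behind a library. The p-values thus reflect variation among libraries alone, and that variation may be technical. Levels are given in CPM, a gene's counts relative to its library's total after scaling by the trimmed mean of M-values (TMM).

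Introns are removed by the spliceosome, a set of small nuclear ribonucleoproteins (snRNPs) that assembles anew on each intron. The U1 snRNP marks the start of the intron, the U2 snRNP with its SF3A and SF3B complexes holds the branch point, and a ring of Sm proteins forms the core of most spliceosomal snRNPs. SR proteins bind exons and mostly promote the use of nearby splice sites, while hnRNPs coat the nascent transcript and often act against them. The excised intron leaves as a lariat, which Dbr1 opens at its branch so that it can be degraded. In the early mouse embryo this machinery serves a genome that has only recently become active.

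Raly and Hnrnpc are paralogs that encode related RNA-binding proteins, and Srsf10 was the SR gene whose 6% ethanol libraries differed least among themselves. Dbr1 had no promoter entry to print. The bases upstream of the transcription start of Raly, Hnrnpc and Srsf10 are printed as examples. They come from RefSeq on build GRCm38.p6, run 5′ to 3′ on the gene's strand, and cover 250 bases that end just before the start. The Raly window is chr2:154790860-154791109 on the plus strand, the Hnrnpc window chr14:52104022-52104271 on the minus strand and the Srsf10 window chr4:135855821-135856070 on the plus strand. Capitals mark the letters CCAAT or GGGCGG on either strand.
Raly: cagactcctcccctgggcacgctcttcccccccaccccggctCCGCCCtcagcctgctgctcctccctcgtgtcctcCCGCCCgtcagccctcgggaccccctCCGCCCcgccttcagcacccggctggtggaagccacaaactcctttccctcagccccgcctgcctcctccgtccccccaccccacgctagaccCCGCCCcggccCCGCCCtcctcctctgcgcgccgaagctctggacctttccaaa
Hnrnpc: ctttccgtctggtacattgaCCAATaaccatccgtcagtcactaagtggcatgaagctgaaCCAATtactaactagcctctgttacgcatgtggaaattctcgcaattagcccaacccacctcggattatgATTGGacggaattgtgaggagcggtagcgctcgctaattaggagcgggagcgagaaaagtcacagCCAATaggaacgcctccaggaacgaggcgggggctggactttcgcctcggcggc
Srsf10: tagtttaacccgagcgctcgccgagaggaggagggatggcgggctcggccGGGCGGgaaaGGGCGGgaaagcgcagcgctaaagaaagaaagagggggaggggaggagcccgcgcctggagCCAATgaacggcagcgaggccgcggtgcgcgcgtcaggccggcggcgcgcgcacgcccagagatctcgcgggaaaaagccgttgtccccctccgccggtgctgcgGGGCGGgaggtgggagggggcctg

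The Raly window held 5 matches to GGGCGG, the GC box letters, and 0 to CCAAT, and its GC content was 72.8%. Its paralog Hnrnpc had the opposite makeup, with 0 GC box matches, 4 CCAAT matches and a GC content of 52.8%. The Srsf10 window held 3 GC boxes and 1 CCAAT match at 72.0% GC. By symbol, 46 of the 54 genes matched a promoter in the RefSeq table, in 60 windows because 8 genes had more than 1. Dbr1, Hnrnpll, Hnrnpul2, Sf3b4, Sf3b5, Snrpb, Snrpd1 and Snrpert had no entry there. GGGCGG occurred in 71.7% of the windows of the set, against 57.8% of the windows of all tested genes and 32.7% of all windows. CCGGAAGT, a core bound by ETS factors, occurred in 15% of the windows of the set, against 6.3% for tested genes and 2.88% for all windows. In the same order, CCAAT occurred in 43.3%, against 36.1% and 33.8%, and TATAAA in 8.33%, against 6.28% and 12.4%. Both strands were searched, overlap with another motif was allowed, and a match is a description of the letters and not of binding. Windows of the set had a median GC content of 61.6%, against 60.0% for tested genes and 52.4% for all windows.

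Gene counts per library ran from 6263465 to 27619281, and the genes of the set together took 1.08 to 1.58% of them, at least 80289 counts in a library. The libraries fell into 2 kinds by the header of the count column. In 4 libraries (control 2, 6% ethanol 1, and 10% ethanol 1 and 2) a long header named the aligner, with 19574710 to 27619281 counts, and in the other 5 (control 1 and 3, 6% ethanol 2 and 3, and 10% ethanol 3) it was short, with 6263465 to 11026334. What the header form stands for is not stated in the labels. The libraries 6% ethanol 2 and 3 stood apart further, with 13.5 and 8.42% of tested genes at 0 counts, against 1.497 to 7.30% in the other 7 libraries, and with 33080.2 and 53098.2 CPM of mitochondrially encoded mRNA, against 5773 to 18897 CPM. Of 16 markers of the preimplantation embryo, 15 reached 10 CPM in some library, and they summed to 3063 to 7074 CPM. Cumulus and granulosa markers summed to 15.6 to 72.6 CPM. Of these, 9 of 14 had counts, led by Amhr2 and Hsd17b1, and Fshr, Inhba, Has2, Ptx3 and Cyp11a1 were at 0 throughout. Sperm markers summed to 8.40 to 40.2 CPM, with 6 of 11 counted, led by Odf2 and Ldhc. Prm2, Tnp1, Tnp2, Odf1 and Smcp were at 0. Fibroblast markers summed to 6.60 to 45.8 CPM, with 5 of 6 counted, led by Pdgfra and Dcn, and Col1a2 at 0. Blood markers summed to at most 14.9 CPM, with 6 of 8 counted, led by Cd68 and Cd3e, and Hbb-bs and Ptprc at 0. In that order 2, 1, 1 and 1 markers reached 10 CPM in some library.

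Set by level per kilobase of exon, Hnrnpc was the most abundant gene of the set, with a mean of 397 CPM per kb over the 9 libraries. Hnrnpc binds uridine tracts along the nascent transcript and keeps cryptic exons out. Hnrnpab followed with 259 CPM per kb, then Snrpc with 184, Sf3b1 with 144, Sf3b6 with 119 and Srsf7 with 110.2. Raly ranked 22 of 54 with 41.2 CPM per kb and Dbr1 ranked 23 with 38.4, so that Raly lay well below its paralog Hnrnpc. At the low end stood Hnrnph3 with 3.03, Hnrnpul1 with 1.88, Srsf4 with 0.744 and Srsf12 near 0. Exon lengths are from an annotation of another build, and reads shared with processed copies, of which genes such as Hnrnpa1 and the small Snrp genes have many, make the levels of single genes uncertain.

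Dbr1, the intron lariat debranching enzyme, had 7.19, 19.6 and 23.2 CPM in control libraries, 77.2, 133 and 499 CPM in 6% ethanol libraries and 27.5, 43.6 and 29.9 CPM in 10% ethanol libraries. All 3 groups were apart from each other, the 6% ethanol libraries highest, and within them library 3 was by itself 3.76 times the next. The means were 16.7 ± 8.39 CPM with control sires, 236 ± 229 with 6% ethanol sires and 33.7 ± 8.70 with 10% ethanol sires (SD, n = 3 each). As log2 fold changes these came to 3.83 (SE 0.78) for 6% ethanol against control, 1.02 (SE 0.71) for 10% ethanol against control and -2.81 (SE 0.75) for 10% against 6% ethanol. Without 6% ethanol library 3 the first was 2.61 and the last -1.59. Between libraries of 1 header form, 6% ethanol against control gave 1.98 for long headers (1 library against 1) and 4.38 for short headers (2 against 2). In total RNA of whole embryos, fewer cells that express a gene and less of its RNA per cell cannot be told apart, here and for every gene below.

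Raly encodes a relative of hnRNP C, and its gene lies in the deletion of the lethal yellow agouti allele. It had 113, 103 and 101 CPM in control libraries, 76.8, 51.7 and 45.5 CPM in 6% ethanol libraries and 338, 268 and 123 CPM in 10% ethanol libraries. Unlike for Dbr1, the 3 libraries of 6% ethanol were the lowest, those of the control lay between, and those of 10% ethanol were the highest, with no overlap between any pair of groups. The means were 106 ± 6.36 CPM with control sires, 58.0 ± 16.6 with 6% ethanol and 243 ± 109.7 with 10% ethanol (SD, n = 3 each). The log2 fold change was -0.87 (SE 0.49) for 6% ethanol against control, 1.20 (SE 0.50) for 10% ethanol against control and 2.06 (SE 0.51) for 10% against 6% ethanol. The 2 highest Raly libraries both had long headers. For 10% ethanol against control the value was 1.55 among long-header libraries, 0.19 among short-header libraries and 0.87 with header form as a term, and the part of the header form in it was not tested. Raly was higher in all 3 libraries of 10% ethanol than in all 3 of the control, by the least in library 3.

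**Figure D1:**
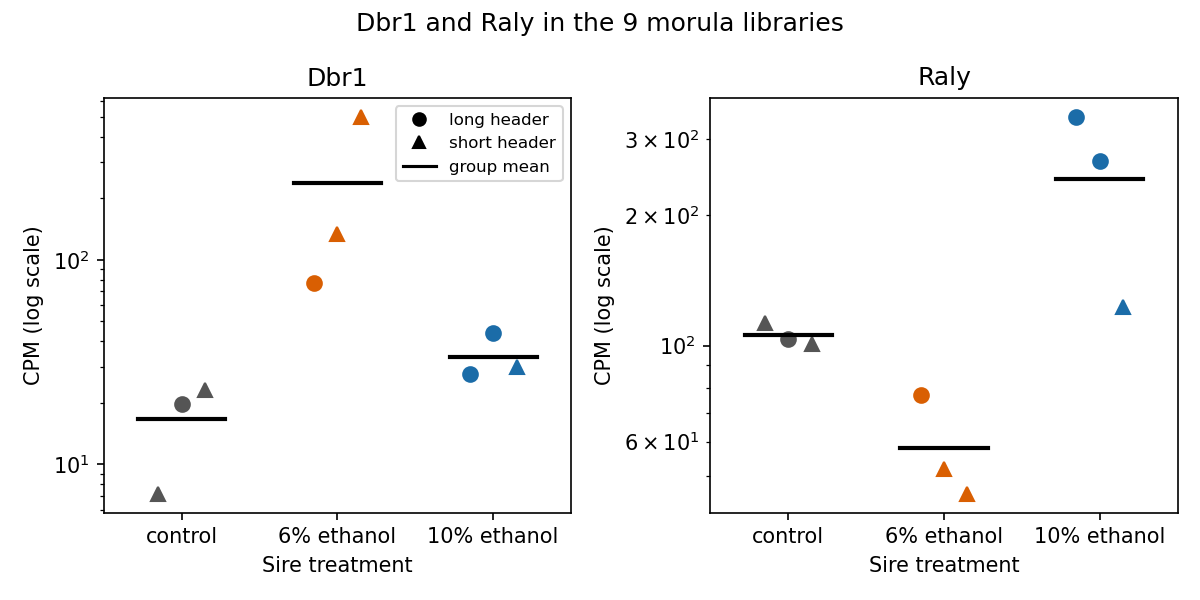
Dbr1 (left) and Raly (right) in CPM on a log axis by sire treatment, with 1 point per library, circles for long and triangles for short column headers, and a bar at the group mean. Dbr1 is highest in the 6% ethanol libraries (77.2, 133 and 499 CPM) and Raly is lowest in them (76.8, 51.7 and 45.5 CPM).

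Hnrnpc, the paralog of Raly, did not separate the 3 groups as Raly did. Its group means ran in the same order, 1459 CPM with 6% ethanol, 1816 with control and 1874 with 10% ethanol sires. It had 1422, 1239.6 and 2785 CPM in control libraries, 1851, 949 and 1579 CPM in 6% ethanol libraries and 2283, 2033 and 1306 CPM in 10% ethanol libraries, so that all 3 groups overlapped, and the highest library was control 3. Its log2 fold change was -0.32 (SE 0.45) for 6% ethanol against control and 0.046 (SE 0.45) for 10% ethanol against control, with adjusted p of 0.911 and 0.9999 by edgeR's quasi-likelihood test.

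With 6% ethanol sires the SR protein genes had higher mean levels than with control sires in 9 of 10 tested genes (median log2 fold change 0.87), and so did all 7 hnRNP A/B and D genes (median 0.45) and all 4 hnRNP F and H genes (median 0.62). Over the 51 genes chosen by symbol, 35 lay above 0 and 16 below, with a median of 0.41, against 49.5% above 0 and a median of -0.014 over the 12488 tested genes and a median of 0.079 over the 7125 that reached 10 CPM. None passed the test: edgeR's quasi-likelihood test called 0 of the 51 at an adjusted p under 0.05, as it called 0% of all tested genes, and DESeq2 also called 0 of the 51, where it called 0.248% of all. At an unadjusted p under 0.05 there were 3 of the 51, Srsf10 and Srsf7 above 0 and Snrpd2 below, or 5.88%, near the 6.24% of all tested genes. In 6 of the 51 (11.8%) every 6% ethanol library lay above every control library, against 3.35% of all tested genes, and in 0 every one lay below, against 4.72%. These 6 were Srsf1, Srsf2, Srsf6, Srsf10, Hnrnpk and Snrpb2.

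Srsf10, which represses splicing when it loses its phosphates, unlike most SR proteins, had 211, 220.3 and 212 CPM in 6% ethanol libraries, against 55.3, 85.7 and 131 CPM in control libraries. The 6% ethanol libraries were close to each other in spite of their different depths, and all lay above the control. The log2 fold change was 1.24 (SE 0.48), with an unadjusted p of 0.0230 and an adjusted p of 0.799 by edgeR. Among long-header libraries alone the value was 1.31 and among short-header libraries 1.20.

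Srsf7, an SR protein with a zinc knuckle, had 287, 636 and 864 CPM in 6% ethanol libraries, against 236, 172 and 375 CPM in control libraries. Libraries 2 and 3 of 6% ethanol were above every control library, and library 1 was not (log2 fold change 1.19, SE 0.50, adjusted p 0.799 by edgeR). Srsf6 had 232, 669.8 and 336 CPM in 6% ethanol libraries, against 179, 228 and 224 CPM in control libraries, and a log2 fold change of 0.97 (SE 0.48). Its 6% ethanol library 1 lay just above the highest control library. The value was 0.43 without 6% ethanol library 2 and 0.031 among long-header libraries. Srsf2, a marker of nuclear speckles that binds exonic enhancers, had 254, 252 and 475 CPM in 6% ethanol libraries, against 239, 122 and 209 CPM in control libraries (log2 fold change 0.78, SE 0.45). Srsf1, the founding SR protein, had 499.7, 400.4 and 580.3 CPM in 6% ethanol libraries, against 348, 369 and 273 CPM in control libraries (log2 fold change 0.58, SE 0.43). Both had their highest 6% ethanol value in library 3.

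Srsf3, which also serves mRNA export, overlapped the control, with 385, 490.0 and 669.6 CPM in 6% ethanol libraries, against 444, 238 and 361 CPM in control libraries. Srsf5 had 53.1, 323 and 294 CPM in 6% ethanol libraries, against 78.5, 60.0 and 205 CPM in control libraries, and Srsf11 had 52.7, 485 and 132 CPM, against 84.3, 66.6 and 195 CPM. In both, library 1 of 6% ethanol was below all 3 control libraries while library 2 was above them. Srsf9 overlapped the control, with means of 62.7 ± 33.6 CPM with 6% ethanol and 58.0 ± 19.4 CPM with control sires (SD, n = 3 each). Srsf4 was the least abundant SR gene that passed the filter and the only one below 0, with 0.296, 3.25 and 1.10 CPM in 6% ethanol libraries, against 1.14, 1.48 and 2.20 CPM in control libraries.

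Summed over the 11 SR genes, the level was 1726, 1381 and 2052 CPM in control libraries, 2039, 3508 and 3660.0 CPM in 6% ethanol libraries and 2167, 2047 and 1911 CPM in 10% ethanol libraries. The 6% ethanol libraries 2 and 3 held the 2 highest sums, and 6% ethanol library 1 lay inside the control range. These are also the 2 libraries with the most mitochondrially encoded mRNA and the largest share of tested genes at 0, and the part of either in the sums was not tested. They held the highest value of the 9 libraries for 12 and 18 of the 51 genes chosen by symbol (23.5 and 35.3%), against 16.5 and 15.7% of all tested genes. Without library 2 the median log2 fold change of the SR genes for 6% ethanol against control was 0.59, and without library 3 it was 0.54, with 8 and 9 of 10 genes above 0. It was 0.57 among long-header libraries, 0.90 among short-header libraries and 0.56 with library totals as the only scaling, under which the median of all tested genes moved to -0.28.

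**Figure D2:**
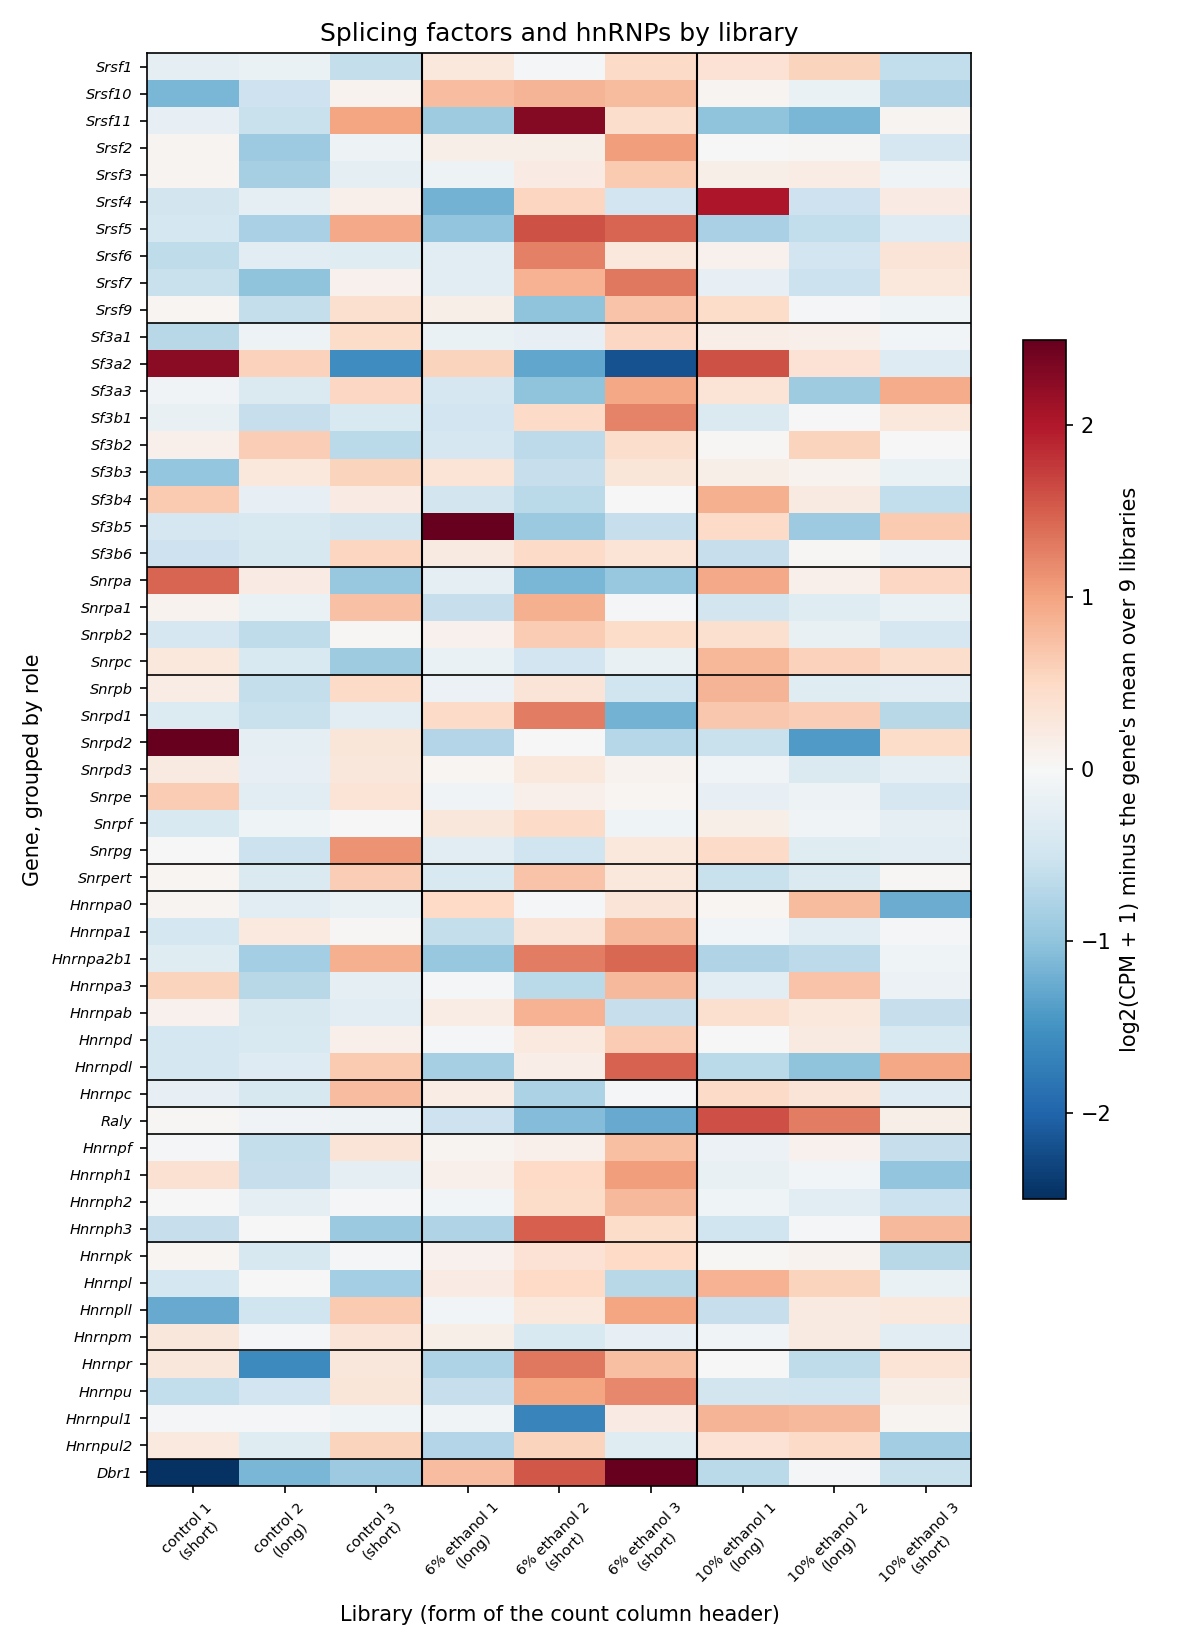
Level of each of the 53 genes that passed the filter (rows, grouped by role) in each of the 9 libraries (columns, with the header form), as log2(CPM + 1) minus the gene's mean over the libraries, with colours saturated at 2.5. The columns of 6% ethanol 2 and 3 hold the highest value of 12 and 18 of the 51 genes chosen by symbol.

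Among the hnRNP genes in 6% ethanol embryos, Hnrnpk, a poly(C)-binding protein, was the one whose 2 groups did not overlap, with 646, 772 and 849.8 CPM in 6% ethanol libraries, against 619, 450.1 and 585 CPM in control libraries. The nearest libraries of the groups were close, and the difference was small next to its error (log2 fold change 0.46, SE 0.39, adjusted p 0.868 by edgeR). Hnrnph1, which binds G tracts, had 471, 609 and 894 CPM in 6% ethanol libraries, against 563, 290.2 and 364 CPM in control libraries, and Hnrnpf had 212, 220.0 and 341 CPM, against 196, 133 and 252 CPM. In both the highest library was 6% ethanol 3 and the groups overlapped.

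Hnrnpa2b1, known for RNA transport and as a reader of methylated adenosine, had 128, 599 and 675 CPM in 6% ethanol libraries, against 201, 137 and 458 CPM in control libraries. Its 2 short-header libraries of 6% ethanol were the highest and its long-header library the lowest of the 6 (log2 fold change 0.82, SE 0.63). Hnrnpab, the second most abundant gene of the set per kb, had 782, 1248 and 458 CPM in 6% ethanol libraries, against 738, 520.3 and 569 CPM in control libraries. Hnrnpu, the scaffold attachment protein of the nucleus, had 264, 777 and 908 CPM in 6% ethanol libraries, against 257, 281 and 484 CPM in control libraries. Its value for 6% ethanol against control was 0.93 over all libraries and -0.086 among those with long headers. The latter sets 1 library against 1, so header form cannot be told from the single libraries. Hnrnpa1, Hnrnpa3, Hnrnpa0, Hnrnpd and Hnrnpdl had log2 fold changes of 0.32, 0.18, 0.40, 0.51 and 0.52 in this comparison, and the libraries of both groups overlapped in each.

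Genes of the spliceosome's core had medians near or below 0 in the 6% ethanol comparison. The median log2 fold change was 0.016 for the 9 SF3A and SF3B genes, -0.029 for the 4 genes of U1 and U2 snRNP specific proteins and -0.16 for the 7 Sm core genes, with 5, 1 and 3 genes above 0. With library totals as the only scaling the medians were -0.25, -0.32 and -0.42, so that of the SF3 genes turned sign. The differences between these medians and that of the SR genes were not tested.

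Sf3b1, the SF3B subunit that grips the branch point, had 1081, 2110.3 and 3554 CPM in 6% ethanol libraries, against 1327, 1017 and 1159 CPM in control libraries. Libraries 2 and 3 of 6% ethanol were above all control libraries and library 1 was not (log2 fold change 0.95, SE 0.45, adjusted p 0.802 by edgeR). Sf3b5, the smallest SF3B subunit, had 239, 20.2 and 26.4 CPM in 6% ethanol libraries, against 29.3, 30.4 and 28.4 CPM in control libraries. Library 1 of 6% ethanol alone was high, at 3.81 times the next library of any group. The log2 fold change of 1.70 (SE 0.87) became -0.36 without that library. Sf3a2 varied most within groups of all 51, with 16.5, 3.82 and 1.65 CPM in 6% ethanol libraries, against 56.3, 16.8 and 3.08 CPM in control libraries, and the groups overlapped (log2 fold change -1.78, SE 1.14).

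Snrpd2, a protein of the Sm ring, had 314, 36.6 and 53.2 CPM in control libraries, 25.4, 43.2 and 25.7 CPM in 6% ethanol libraries and 28.9, 15.3 and 59.2 CPM in 10% ethanol libraries. Control library 1 alone was high, at 5.30 times the next library, and the other 8 libraries overlapped across groups. Its log2 fold change of -2.10 (SE 0.83) for 6% ethanol against control was -0.53 without that library, and the -1.97 (SE 0.83) for 10% ethanol against control was -0.38. Snrpa, the U1 protein that binds a stem loop of U1 snRNA, had 54.3, 28.1 and 32.5 CPM in 6% ethanol libraries, against 175, 73.6 and 32.3 CPM in control libraries, again with control library 1 highest (log2 fold change -1.29, SE 0.64). Snrpb2, a U2 snRNP protein, had 51.8, 75.8 and 66.8 CPM in 6% ethanol libraries, against 35.9, 30.9 and 49.6 CPM in control libraries, with no overlap (log2 fold change 0.74, SE 0.54, adjusted p 0.837 by edgeR).

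The comparison of 10% ethanol with control, which shares its control libraries with the comparison above, had a median over the set nearer to 0. The 51 genes split into 30 above and 21 below 0, and their median log2 fold change was 0.092, against 47.1% above 0 and a median of -0.055 over all tested genes. The SR genes had a median of 0.24 with 8 of 10 above 0, and the Sm core genes a median of -0.35 with 3 of 7 above 0. Over all alternatives the SR median ran from -0.28 to 0.64 and the Sm median from -0.64 to 0.24, so both changed sign. edgeR called 0 of the 51 and 0% of all tested genes, and DESeq2 called 0 of the 51 and 0.0801% of all. Snrpc and Snrpd2 had an unadjusted p under 0.05 (3.92% of the 51, against 2.14% of all tested genes). With header form as a term 0 of the 51 did. Snrpc and Hnrnpul1 had every 10% ethanol library above every control library (3.92%, against 4.39% of all), and Snrpa1 had every one below (1.96%, against 3.67%). The median of the 51 was 0.44 among long-header libraries (2 against 1), with 40 genes above 0, and -0.35 among short-header libraries (1 against 2), with 16. Its sign thus differed, but with 1 library on a side header form cannot be told from that library.

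Snrpc, the U1 protein that steadies the pairing of U1 snRNA with the start of the intron, had 1346, 860.2 and 609 CPM in control libraries, 997, 808 and 988 CPM in 6% ethanol libraries and 1989.9, 1681 and 1526 CPM in 10% ethanol libraries. The 3 libraries of 10% ethanol were the 3 highest of the 9, while the 6% ethanol and control libraries overlapped. The means were 1732 ± 236 CPM with 10% ethanol and 938 ± 375 CPM with control sires (SD, n = 3 each), and the log2 fold change was 0.89 (SE 0.40) with an unadjusted p of 0.0457 and an adjusted p of 0.9999 by edgeR. It was 1.09 among long-header and 0.64 among short-header libraries, and over all alternatives it ran from 0.64 to 1.24. Hnrnpul1, an hnRNP U relative, had 27.2, 26.5 and 15.5 CPM in 10% ethanol libraries, against 14.5, 14.3 and 13.6 CPM in control libraries, and library 3 of 10% ethanol was above the control by only about 1 CPM. Snrpa1, a U2 snRNP protein, had 52.9, 59.3 and 64.9 CPM in 10% ethanol libraries, against 78.0, 65.1 and 122 CPM in control libraries, where the nearest libraries differed by less than 1 CPM. Hnrnpl, which binds CA repeats, had 193, 154 and 93.4 CPM in 10% ethanol libraries, against 77.0, 105 and 57.8 CPM in control libraries, with overlap (log2 fold change 0.87, SE 0.52).

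Between the ethanol doses the direction of the set was the other way round from that of 6% ethanol against control, with the 6% ethanol libraries common to both comparisons. With 10% ethanol sires 34 of the 51 genes were below and 17 above their level with 6% ethanol sires, at a median log2 fold change of -0.33, against 50.5% below 0 and a median of -0.016 over all tested genes. The medians were -0.59 for the SR genes (8 of 10 below 0) and -0.64 for the hnRNP F and H genes (4 of 4 below 0). Over all alternatives the former ran from -0.85 to 0.092 and the latter from -1.12 to -0.11. edgeR called 0 of the 51 and 0% of all tested genes, and DESeq2 called 0 of the 51 and 0.272% of all. An unadjusted p under 0.05 was found for 5 of the 51 (9.80%, against 5.33% of all), namely Srsf5, Srsf11, Srsf10 and Hnrnpa2b1 below 0 and Snrpc above. That count rests on single libraries. It was 2 with header form as a term, 0 without 6% ethanol library 2 and 9 without 6% ethanol library 1. Libraries did not overlap in 8 genes that were lower with 10% ethanol (15.7%, against 3.6% of all) and in 2 that were higher, Snrpc and Snrpa (3.92%, against 6.05%). The 8 were Srsf2, Srsf10, Hnrnph1, Hnrnph2, Hnrnpk, Sf3b6, Snrpd3 and Snrpe.

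Srsf10 had 129, 109 and 72.3 CPM in 10% ethanol libraries, against 211, 220.3 and 212 CPM in 6% ethanol libraries, with a log2 fold change of -1.05 (SE 0.48) and an adjusted p of 0.806 by edgeR. The 10% ethanol libraries lay inside the control range, and all were below every 6% ethanol library. Hnrnph1 had 377, 411 and 216.03 CPM in 10% ethanol libraries, against 471, 609 and 894 CPM in 6% ethanol libraries (log2 fold change -0.98, SE 0.45). Snrpa had 124, 69.3 and 91.8 CPM in 10% ethanol libraries, against 54.3, 28.1 and 32.5 CPM in 6% ethanol libraries, the other direction (log2 fold change 1.31, SE 0.64). The median of the 51 genes was -0.091 without 6% ethanol library 3 and 0.15 among long-header libraries, where the sign turned, and -0.52 among short-header libraries. Srsf5 and Hnrnpa2b1, with -1.65 and -1.39 over all libraries, had 0.28 and 0.24 among long-header libraries.

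Other genes with every 10% ethanol library below every 6% ethanol library differed by less. Sf3b6, the SF3B subunit that touches the branch adenosine, had 219, 335 and 298 CPM in 10% ethanol libraries, against 385, 456 and 414 CPM in 6% ethanol libraries (log2 fold change -0.56, SE 0.43). Hnrnph2, a close relative of Hnrnph1 on the X chromosome, had 50.4, 45.3 and 37.5 CPM in 10% ethanol libraries, against 51.7, 75.8 and 96.5 CPM in 6% ethanol libraries (log2 fold change -0.75, SE 0.51). For Hnrnph2 the 10% ethanol libraries 2 and 3 lay below the control range of 46.6 to 54.1 CPM. Snrpe, an Sm ring protein, averaged 56.8 ± 6.05 CPM with 10% ethanol and 69.0 ± 5.26 CPM with 6% ethanol (SD, n = 3 each), and the nearest libraries were less than 2 CPM apart (log2 fold change -0.28, SE 0.48).

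In the genes not yet described, the libraries overlapped in each of the 3 dose comparisons. Sf3a1, the SF3A subunit that contacts U1, had 203, 298 and 449 CPM in control libraries, 290.5, 282 and 471 CPM in 6% ethanol libraries and 366, 359 and 310.4 CPM in 10% ethanol libraries, and its log2 fold changes against control were 0.14 for 6% and 0.13 for 10% ethanol. Sf3a3, Sf3b2, Sf3b3 and Sf3b4 had 0.016, -0.26, -0.007 and -0.65 for 6% ethanol against control and 0.24, 0.092, -0.063 and 0.031 for 10% ethanol against control. Of the Sm ring, Snrpd1 had 38.5, 33.0 and 39.6 CPM in control libraries, 68.1, 119.9 and 20.8 CPM in 6% ethanol libraries and 78.4, 75.6 and 29.8 CPM in 10% ethanol libraries. In both ethanol groups libraries 1 and 2 lay above all control libraries and library 3 lay below them. Snrpb and Snrpg had log2 fold changes of -0.16 and -0.52 for 6% ethanol against control and 0.099 and -0.36 for 10% ethanol against control. Of the less abundant hnRNP genes, Hnrnph3 had 5.14, 8.20 and 3.81 CPM in control libraries, 4.40, 24.6 and 11.5 CPM in 6% ethanol libraries and 5.44, 7.97 and 14.9 CPM in 10% ethanol libraries, and Hnrnpll, which regulates CD45 splicing in lymphocytes, had 90.3, 153 and 339 CPM in control libraries, 208, 259.7 and 428 CPM in 6% ethanol libraries and 145, 253 and 260.3 CPM in 10% ethanol libraries. The highest library was 6% ethanol 2 for Hnrnph3 and 6% ethanol 3 for Hnrnpll. Hnrnpul2, another hnRNP U relative, had log2 fold changes of -0.27 for 6% ethanol and -0.097 for 10% ethanol, each against control.

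**Figure D3:**
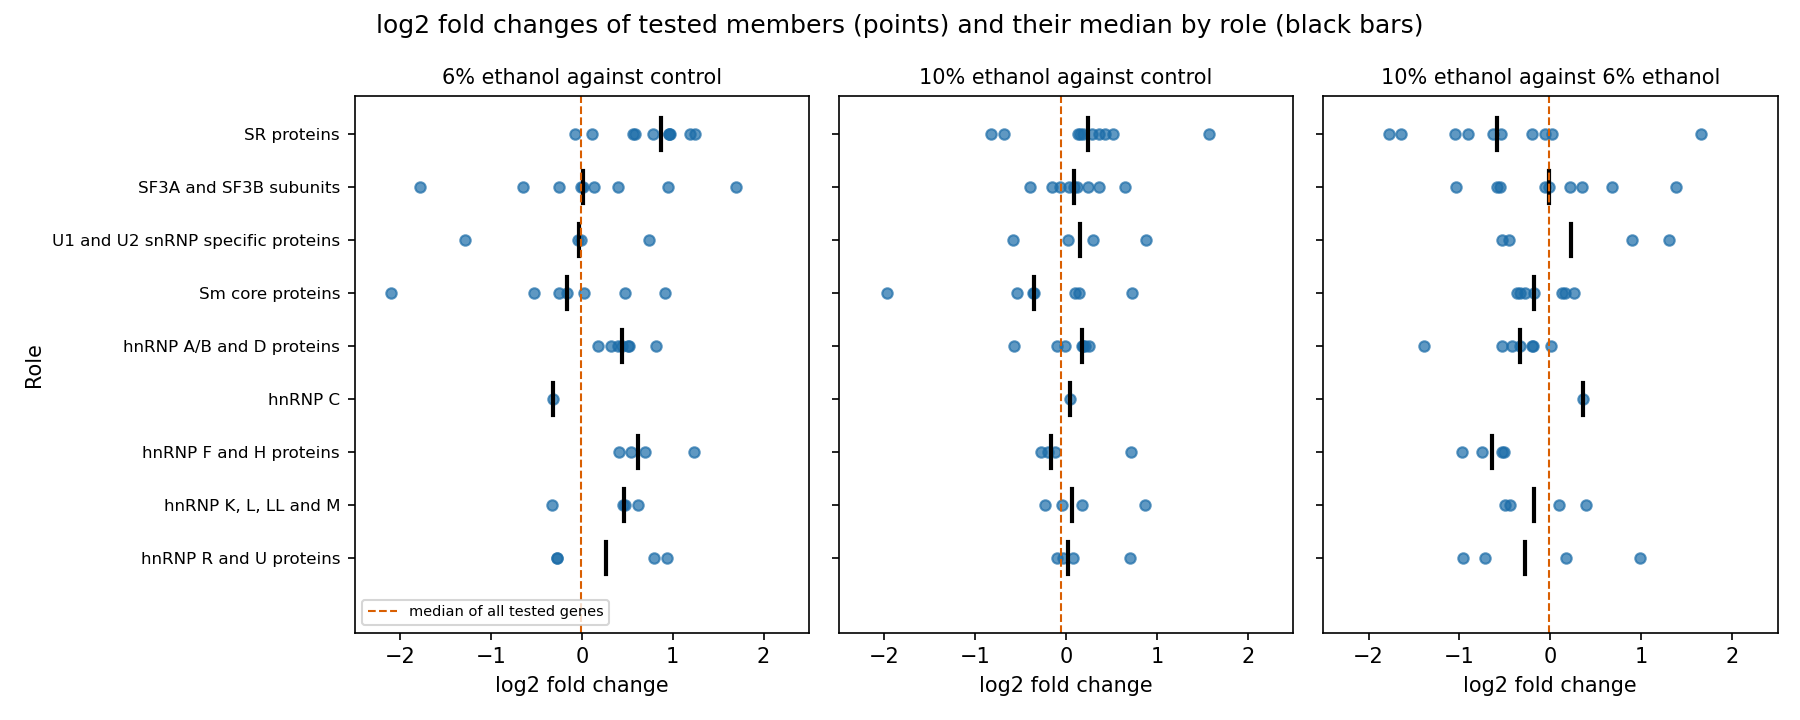
log2 fold changes of 50 genes chosen by symbol and assigned to a role (points) in the 3 dose comparisons, by role, with a black bar at the median of each role and a dashed line at the median of all tested genes. The SR genes have a median of 0.87 for 6% ethanol against control and -0.59 for 10% against 6% ethanol, and none of the points passed the test.

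By unadjusted p in either direction, header form went with genes of the set no more often than with tested genes at large. With sire treatment as a term, 34 of the 51 genes were lower in long-header than in short-header libraries and 17 higher, at a median log2 fold change of -0.19, against 0.096 over all tested genes, of which 46.8% were below 0. edgeR called 0 of the 51, against 0.104% of all tested genes, and DESeq2 called 2, Hnrnpr and Hnrnpa2b1, against 8.22% of all. At an unadjusted p under 0.05 there were 7 (13.7%, against 14.8% of all tested genes), all lower in long-header libraries. Of the 12488 tested genes, 909 were lower and 940 higher at that p. Every long-header library was below every short-header library in 5 genes (9.80%, against 4.8% of all), namely Hnrnpr, Hnrnpa2b1, Srsf5, Srsf11 and Snrpert, and above it in 0, against 4.28%.

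Hnrnpr had 35.7, 64.1, 109.7 and 70.2 CPM in long-header libraries, against 133, 134, 276, 185 and 139.5 CPM in short-header libraries. The 2 kinds did not overlap, and the log2 fold change was -1.48 (SE 0.44), with an adjusted p of 0.185 by edgeR and 0.0138 by DESeq2. Hnrnpa2b1 had 137, 128, 147 and 157 CPM in long-header libraries, against 201, 458, 599, 675 and 229 CPM in short-header libraries, with a log2 fold change of -1.38 (SE 0.44) and an adjusted p of 0.212 by edgeR and 0.0376 by DESeq2. The long-header libraries were close to each other across the 3 treatments, and the short-header libraries were spread widely. Srsf5 averaged 60.7 ± 6.68 CPM in long-header and 197 ± 114 CPM in short-header libraries (SD, n = 4 and 5), Srsf7 249.6 ± 58.0 and 505 ± 247 CPM, and Hnrnpdl 104 ± 22.2 and 275 ± 132 CPM. Short headers were found in 1 of 3 libraries of 10% ethanol, 2 of 3 of 6% ethanol and 2 of 3 of the control, so header form is unevenly spread over the groups in both comparisons of 10% ethanol, and its part in them was not tested.

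**Figure D4:**
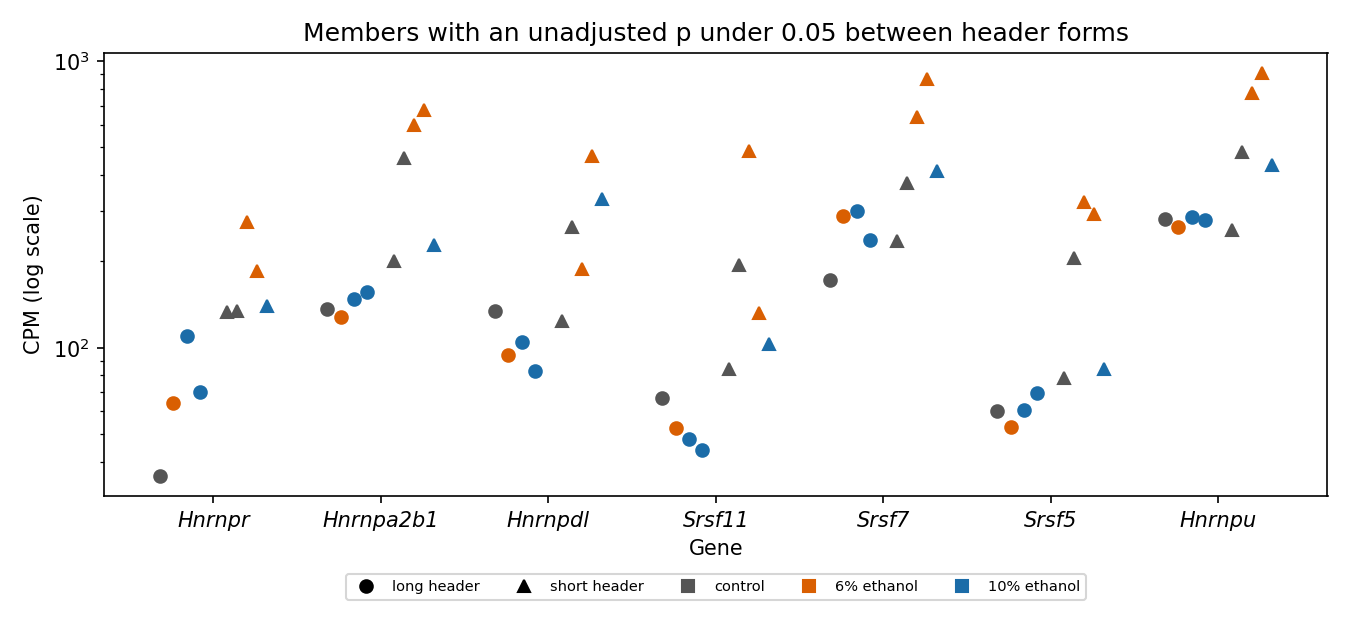
CPM on a log axis of the 7 genes with an unadjusted p under 0.05 between header forms, with 1 point per library, long-header libraries as circles to the left of short-header libraries as triangles, coloured by sire treatment. Hnrnpr and Hnrnpa2b1 are lower in every long-header than in every short-header library.

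Spread within groups was smaller for the set than for genes at large. The median within-group SD of log2 CPM was 0.54 over the 51 genes, against 1.18 over all tested genes, and 0.54 over the 47 of them that reached 10 CPM, against 0.896 over the 7125 tested genes that did. Genes were not matched for level beyond that threshold, and the part of level in the difference was not tested. Sf3a2 (1.64), Srsf4 (1.31), Sf3b5 (1.23), Snrpd2 (1.14) and Srsf11 (1.11) varied most. The steadiest were Snrpd3 (0.19), Hnrnpm (0.25), Snrpf (0.28), Snrpe (0.29) and Hnrnph2 (0.30), 3 of them Sm ring proteins. Snrpd3 had 45.7, 34.0 and 47.9 CPM in control libraries, 40.6, 47.4 and 41.7 CPM in 6% ethanol libraries and 37.1, 30.2 and 32.9 CPM in 10% ethanol libraries, which spans 1.59 times from lowest to highest, while Hnrnpm spanned 1.63 times and Snrpe 2.12 times.

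Other genes of the splicing pathway, 186 symbols in 10 lists that cover the catalytic core, helicases, early recognition, the minor spliceosome, LSm proteins, snRNP assembly, lariat release, the exon junction, SR protein kinases and further regulators, were read beside the set. Of these, 185 were in the files and 178 were tested. For 6% ethanol against control 109 of the 178 lay above and 69 below 0, and the median log2 fold change was 0.20, and for 10% ethanol against control 89 lay on each side with a median of -0.007. For 10% against 6% ethanol 105 lay below and 73 above, at a median of -0.18. The shares above 0 were 61.2, 50 and 41.0% in these 3 comparisons, against 49.5, 47.1 and 49.5% of all tested genes. edgeR called 0 of the 178 in each, as it called 0% of all tested genes, and DESeq2 called 0 in each, against 0.248, 0.0801 and 0.272% of all. An unadjusted p under 0.05 was found for 7, 0 and 8 genes (3.93, 0 and 4.49%), below the 6.24, 2.14 and 5.33% of all tested genes.

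For 6% ethanol against control, 7 of the 10 genes listed as lariat release and debranching partners lay above 0, at a median log2 fold change of 0.56. All tested genes had a median of -0.014, and the 11 genes of the exon junction complex had 8 above 0 and a median of 0.65. Libraries did not overlap in 2 of the 10 that were higher and in 1 that was lower with 6% ethanol, against 3.35 and 4.72% of all tested genes. Xrn2, a nuclear exonuclease of this list, had 215.5, 316 and 419 CPM in 6% ethanol libraries, against 136, 166 and 165 CPM in control libraries, with no overlap (log2 fold change 1.02, SE 0.42, adjusted p 0.799 by edgeR). Prpf4, a protein of the tri-snRNP, had 48.6, 22.1 and 20.1 CPM in 6% ethanol libraries, against 252, 50.1 and 59.8 CPM in control libraries, where control library 1 was far above the other 2 (log2 fold change -1.99, SE 0.74). Ddx23, a helicase of the tri-snRNP, had 33.0, 40.6 and 32.4 CPM in 10% ethanol libraries, against 5.14, 20.0 and 9.82 CPM in control libraries, with no overlap (log2 fold change 1.60, SE 0.82, adjusted p 0.9999 by edgeR). Clk4, a kinase of SR proteins, had 8.52, 20.7 and 29.1 CPM in 10% ethanol libraries, against 8.0004, 179 and 134 CPM in 6% ethanol libraries, and its long-header library of 6% ethanol lay below the 10% ethanol libraries.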

How the data were processed

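Total RNA of mouse morulae was sequenced in 9 libraries, 3 per sire treatment. The authors deposited raw gene counts, 1 table per library, made with featureCounts on build GRCm39, per the submitters' processing notes, which also name DESeq2. RNA STAR is named in 4 column headers, per the file headers. The aligner of the other 5 libraries, versions, annotation and strand setting are not given in the sources used here, so reads of overlapping, antisense or near-identical genes cannot be told apart. Per-sample columns left unused numbered 0.

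Counts were filtered with filterByExpr by group, which kept 12488 genes, scaled with TMM and tested in edgeR 4.0.16 (quasi-likelihood F test, all 9 libraries in 1 fit, Benjamini-Hochberg over all tested genes, threshold 0.05) in R 4.3.3. A standard error is the absolute log2 fold change divided by the square root of F. Log2 CPM used a prior count of 2. DESeq2 1.42.0 was run on the same 12488 genes, and limma 3.58.1 as a further alternative. Other alternatives were RLE scaling, library totals, a looser and a stricter filter, only the groups compared, a robust fit, a model with header form, fits within 1 header form and leaving out each library. Replicate numbers follow accession order and pair nothing. Totals of 6263465 to 27619281 counts set the precision, and a count of 0 allows up to 3 counts, for counting error only. All pairs of libraries differed beyond sampling noise.

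The genes and lists were chosen with earlier results of these data known. Genes named singly were Dbr1, Raly, members called by a tool, the 5 higher and 5 lower of smallest p per comparison at 10 CPM or more, the 2 most abundant per role, and the 5 most and least variable. Of related lists, called genes or the 2 of smallest p were named. Genes whose libraries did not overlap, others given to complete a role, and Hnrnph3 and Srsf12 were named after their values were seen. Exon lengths are unions from GENCODE M21, used for lengths alone, and promoters were matched by symbol.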

Additional observations from a re-analysis of the deposited data

How the results depend on the processing

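No paired analysis was made, because the replicate numbers follow accession order and the labels state no pairing. Sample titles hold IDs whose meaning the labels do not give, and these were not used to pair libraries. For 6% ethanol against control, 10% ethanol against control and 10% against 6% ethanol, edgeR called 0 genes, also with each library left out (0 to 0). The counts in that order were 140, 47 and 147 with no filter beyond 1 count, 31, 10 and 34 with DESeq2, 3, 9 and 4 among long-header libraries, and 48, 2 and 1 among short-header libraries. In the single-header fits a group can be 1 library, which is assumed to vary like the others. Between header forms edgeR called 13 genes, 504 with no filter, 24 at 10 CPM or more in 3 libraries, 1027 with DESeq2, 304 with limma voom and 0 to 30 with 1 library left out, 30 without control library 1 and 0 or 1 without any other, so that number rests on single libraries.

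The median log2 fold change of the 51 genes for 6% ethanol against control was 0.14 with library totals alone and 0.24 (without 6% ethanol library 3) to 0.42 with 1 library left out. Library totals alone moved the median of all tested genes to -0.28, -0.18 and 0.13 in the dose comparisons in the order above and to 0.21 between header forms, and the set's median for 10% ethanol against control to -0.008. For 10% ethanol against control it was 0.44 among long-header and -0.35 among short-header libraries, and -0.075 to 0.25 with 1 left out. For 10% against 6% ethanol it was 0.15 among long-header libraries and -0.33 to -0.091 with 1 left out. Between header forms it ran from -0.40 to 0.068, the last without control library 2. Signs turned for Hnrnpa2b1 (0.24), Hnrnpu (0.085) and Srsf5 (0.28) in 10% against 6% ethanol among long-header libraries, for Hnrnpu (-0.086) in 6% ethanol against control among long-header libraries, and for Sf3b5 in that comparison among short-header libraries (-0.32) and without 6% ethanol library 1 (-0.36, against 2.19 without 6% ethanol library 2). The cause was not tested. Genes with few counts, such as Srsf4 and Snrpf, are limited by depth.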

Other observations

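Of the 178 related splicing genes tested, DESeq2 called 18 between long-header and short-header libraries (10.1%, near the 8.22% of all tested genes), 15 lower and 3 higher in long-header libraries. edgeR called 0, against 0.104% of all tested genes, and 30 had an unadjusted p under 0.05 (16.9%, against 14.8% of all). The genes below are named because DESeq2 called them, and do not stand for their lists: of the 11 tested SR protein kinases and import factors, for example, DESeq2 called 3, and 7 lay below and 4 above 0. The 15 were the SR protein kinases Clk1, Clk2 and Prpf4b, the exon junction complex genes Srrm2, Pnn and Rbm8a, the minor spliceosome genes Zcrb1 and Snrnp48, the early recognition genes Luc7l2, Rbm25, Rbm39 and U2surp, and Coil, Cdc5l and Son. Clk1 averaged 45.5 ± 14.1 CPM in long-header and 227 ± 105 CPM in short-header libraries (SD, n = 4 and 5), with no overlap (log2 fold change -2.17, SE 0.49, adjusted p 0.121 by edgeR and 0.000545 by DESeq2). Son averaged 122 ± 25.8 CPM in long-header and 383 ± 92.3 CPM in short-header libraries, and Zcrb1 29.5 ± 11.5 and 147 ± 73.4 CPM, both without overlap. Prpf19, of the Prp19 complex, was on the other side, with 81.6 ± 11.99 CPM in long-header and 34.8 ± 8.74 CPM in short-header libraries.

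Coil, the scaffold of Cajal bodies where snRNPs mature, had 83.2, 68.6 and 148 CPM in 10% ethanol libraries, against 111, 1519 and 204 CPM in 6% ethanol libraries, and 6% ethanol library 2 alone was high. The 12 tested genes of the minor spliceosome had a median log2 fold change of -1.12 for 10% against 6% ethanol with 10 below 0, 0.41 for 6% ethanol against control with 5 below 0, -0.52 for 10% ethanol against control with 10 below 0, and -0.56 between header forms with 9 below 0. The shares below 0 were 83.3, 41.7, 83.3 and 75%, against 50.5, 50.5, 52.9 and 46.8% of all tested genes. In the dose comparisons edgeR called 0 of the 12, against 0% of all tested genes. DESeq2 called 0, against 0.272, 0.248 and 0.0801% of all in the same order. An unadjusted p under 0.05 by edgeR was found for 1, 0 and 0 (8.33, 0 and 0%), against 5.33, 6.24 and 2.14% of all.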
